A study of Mus musculus with 9 samples.

Results

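Immunoglobulin variable segments are the germline gene pieces that encode most of the antigen-binding part of an antibody. Of 30865 genes in a table of RNA-seq read counts from mouse lung, 231 had a symbol starting with Ighv (heavy chain), Igkv (kappa light chain) or Iglv (lambda light chain). The 163 segments described here are those with a summed count of at least 10 over the 9 libraries: 82 of 116 Ighv, 78 of 112 Igkv and all 3 Iglv segments, which leaves out 68. At the edge of this rule, Ighv1-62-2, Ighv1-67 and Igkv4-73 had 10 counts and Igkv1-133 had 11, whereas Ighv1-77, Ighv6-4, Igkv4-51 and Igkv4-77 had 9. Per GENCODE M21, the heavy chain segments lie on mouse chromosome 12, the kappa segments on chromosome 6 and the lambda segments on chromosome 16, and 1 Igkv member with 10 counts is annotated as a pseudogene.

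The libraries form 3 groups of 3. The labels name them as Hif-1α knockdown after hypoxia, hypoxia and normoxia. The sources used here give no strain, age, oxygen level, duration of hypoxia or method of knockdown, and do not say whether each library came from its own mouse, so p-values measure the spread between these libraries, which may be technical. The titles carry the word muscle while the tissue field says lung. Summed CPM (read counts scaled to a common library size of 1000000) of 6 lung epithelial markers lay between 41520 and 56249 in all 9 libraries, and those of 5 skeletal muscle markers between 1.61 and 16.7. Library totals were 15566485 to 18046442 counts, and a count of 3, used here as the detection floor, was worth 0.166 to 0.196 CPM. Hif1a, the gene targeted by the knockdown, had 86.3, 85.4 and 84.9 CPM in the 3 libraries labelled knockdown, 93.2, 98.2 and 88.5 CPM in hypoxia and 80.2, 87.7 and 78.5 CPM in normoxia. Its log2 difference between the libraries labelled knockdown and hypoxia was −0.13 (SE 0.08, adjusted p = 0.62, edgeR quasi-likelihood test), so its RNA does not show a knockdown, and the group is called the knockdown label throughout.

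Each developing B cell joins a V segment to J segments, and in the heavy chain also to a D segment, by V(D)J recombination, and the rearranged V exon is then transcribed together with a constant region. A B cell clone therefore carries its own choice of segments. Plasma cells, the antibody-secreting descendants of B cells, hold far more immunoglobulin RNA per cell than resting B cells. In bulk tissue, more cells of a type and more RNA per cell cannot be told apart.

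The sequences that follow show how alike neighbouring segments are, which limits how surely short reads can be given to a single segment. Shown are the first 300 bases of the reference coding sequences, from GENCODE M21 transcripts of GRCm38, of 4 segments on which the results turn, each followed by the segment most like it, with capitals marking the bases that differ between the pair. Ighv9-3 (chr12:114140692-114141122, minus strand) held the largest share of a heavy chain locus in any library, and Igkv4-59 (chr6:69438218-69438757, minus strand) the largest share of the kappa locus. Ighv1-74 (chr12:115802648-115803080, minus strand) and Igkv3-4 (chr6:70671788-70672377, plus strand) had the lowest log2 fold change among the tested segments of their locus in the knockdown label against hypoxia. The coordinates include the intron, which the printed coding sequences leave out.

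Ighv9-3: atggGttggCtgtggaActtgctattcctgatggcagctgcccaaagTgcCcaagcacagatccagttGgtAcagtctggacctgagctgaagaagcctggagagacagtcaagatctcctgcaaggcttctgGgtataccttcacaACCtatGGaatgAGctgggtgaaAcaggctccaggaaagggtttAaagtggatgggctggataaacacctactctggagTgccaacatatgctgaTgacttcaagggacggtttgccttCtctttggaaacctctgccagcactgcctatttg
Ighv9-2: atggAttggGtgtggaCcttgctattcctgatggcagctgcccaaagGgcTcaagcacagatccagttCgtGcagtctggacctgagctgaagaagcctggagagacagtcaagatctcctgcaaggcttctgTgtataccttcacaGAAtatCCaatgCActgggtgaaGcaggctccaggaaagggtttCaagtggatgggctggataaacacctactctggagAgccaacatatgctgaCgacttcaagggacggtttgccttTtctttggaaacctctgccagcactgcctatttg
Igkv4-59: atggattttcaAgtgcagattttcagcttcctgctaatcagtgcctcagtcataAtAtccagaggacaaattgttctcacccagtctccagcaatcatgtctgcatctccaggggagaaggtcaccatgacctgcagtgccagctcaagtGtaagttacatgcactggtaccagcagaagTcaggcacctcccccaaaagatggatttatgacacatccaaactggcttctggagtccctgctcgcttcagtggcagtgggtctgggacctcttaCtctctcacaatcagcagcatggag
Igkv4-70: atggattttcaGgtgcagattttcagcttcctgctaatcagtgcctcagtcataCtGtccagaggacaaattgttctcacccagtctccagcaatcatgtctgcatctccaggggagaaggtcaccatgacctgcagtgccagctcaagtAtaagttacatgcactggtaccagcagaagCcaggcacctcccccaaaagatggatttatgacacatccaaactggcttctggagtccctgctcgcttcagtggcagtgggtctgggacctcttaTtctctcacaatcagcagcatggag
Ighv1-74: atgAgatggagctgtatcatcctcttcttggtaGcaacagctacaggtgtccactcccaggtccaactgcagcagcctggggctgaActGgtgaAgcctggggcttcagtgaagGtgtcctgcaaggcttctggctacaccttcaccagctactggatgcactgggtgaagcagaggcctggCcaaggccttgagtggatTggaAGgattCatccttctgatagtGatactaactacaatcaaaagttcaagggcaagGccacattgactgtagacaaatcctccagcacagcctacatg
Ighv1-69: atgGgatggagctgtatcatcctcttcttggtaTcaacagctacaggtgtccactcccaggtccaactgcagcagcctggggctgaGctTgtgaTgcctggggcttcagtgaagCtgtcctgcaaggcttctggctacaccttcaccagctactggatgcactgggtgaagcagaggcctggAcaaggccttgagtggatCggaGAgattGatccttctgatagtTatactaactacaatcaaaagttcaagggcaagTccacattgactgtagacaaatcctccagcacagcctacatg
Igkv3-4: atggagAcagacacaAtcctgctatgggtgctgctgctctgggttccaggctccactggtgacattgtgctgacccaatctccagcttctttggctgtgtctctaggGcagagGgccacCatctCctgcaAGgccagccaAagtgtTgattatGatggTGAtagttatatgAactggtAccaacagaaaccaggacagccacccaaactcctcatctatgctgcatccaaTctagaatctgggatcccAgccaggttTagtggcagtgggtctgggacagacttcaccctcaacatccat
Igkv3-3: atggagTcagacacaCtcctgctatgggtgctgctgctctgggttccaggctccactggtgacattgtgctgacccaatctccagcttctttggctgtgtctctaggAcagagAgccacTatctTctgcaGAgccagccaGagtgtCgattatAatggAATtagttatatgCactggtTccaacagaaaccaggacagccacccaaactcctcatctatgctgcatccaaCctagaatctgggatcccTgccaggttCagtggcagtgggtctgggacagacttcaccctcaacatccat

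Over their whole coding sequences Ighv9-3 and Ighv9-2 differ at 20 bases and are 94.3% identical. Igkv4-59 and Igkv4-70 differ at 9 aligned bases, with 97.4% identity. Ighv1-74 and Ighv1-69 differ at 14 bases, with 96.0% identity, and Igkv3-4 and Igkv3-3 at 21, with 94.2%. Over the 162 members with an annotated coding sequence, the identity to the closest other variable segment had a median of 95.2% in Ighv and 94.5% in Igkv, and it exceeded 95% for 41 of 82 Ighv and 36 of 77 Igkv members. No pair was identical. The longest identical run had a median of 68 bases in Ighv and 73 bases in Igkv. Counts of single segments are therefore uncertain, because reads may be split or shared among near-identical segments, and somatic mutation can shift them further. Sums over a locus are less exposed to this.

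The summed level of heavy and kappa variable segments was higher in hypoxia than in normoxia, and lower in the knockdown label than in hypoxia, with no overlap of the libraries in either comparison. Both comparisons use the same 3 hypoxia libraries, so they are not independent of each other. The Ighv sum was 17.9, 17.4 and 36.0 CPM in the knockdown label, 138, 52.4 and 80.7 CPM in hypoxia, and 25.6, 42.9 and 16.1 CPM in normoxia. The lowest hypoxia library thus lay above the highest library of both other groups, whereas the knockdown label and normoxia overlapped. Means were 23.8 ± 10.6, 90.5 ± 43.8 and 28.2 ± 13.6 CPM in the same order of groups (SD, n = 3 each). Hypoxia was 3.21-fold normoxia, a log2 ratio of means of 1.68 that ranged from 1.24 to 2.12 as each library was left out in turn. The knockdown label was 0.263-fold hypoxia, a log2 ratio of −1.93 with a range of −2.36 to −1.49.

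The Igkv sum was 30.7, 33.4 and 51.6 CPM in the knockdown label, 153, 74.4 and 112 CPM in hypoxia, and 46.6, 69.1 and 30.4 CPM in normoxia. The lowest hypoxia library, at 74.4 CPM, stood close above the highest normoxia library, at 69.1 CPM. Means were 38.6 ± 11.4 CPM in the knockdown label, 113 ± 39.1 CPM in hypoxia and 48.7 ± 19.4 CPM in normoxia (SD, n = 3 each). Hypoxia was 2.32-fold normoxia, and the knockdown label was 0.342-fold hypoxia. The knockdown label differed from normoxia by a log2 ratio of −0.34 in Igkv and −0.25 in Ighv, and the libraries overlapped in each.

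The lambda segments did not show this pattern. The Iglv sum was 6.92, 5.48 and 6.03 CPM in the knockdown label, 10.8, 3.64 and 5.74 CPM in hypoxia, and 7.33, 9.90 and 4.25 CPM in normoxia. The hypoxia libraries spanned those of the other groups. The log2 ratios of the means were −0.09 for hypoxia against normoxia and −0.13 for the knockdown label against hypoxia. Kappa segments made up 81.6%, 85.9% and 89.5% of light chain variable counts in the knockdown label, 93.4%, 95.3% and 95.1% in hypoxia and 86.4%, 87.5% and 87.7% in normoxia. The hypoxia libraries were the highest 3 of the 9.

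**Figure D1:**
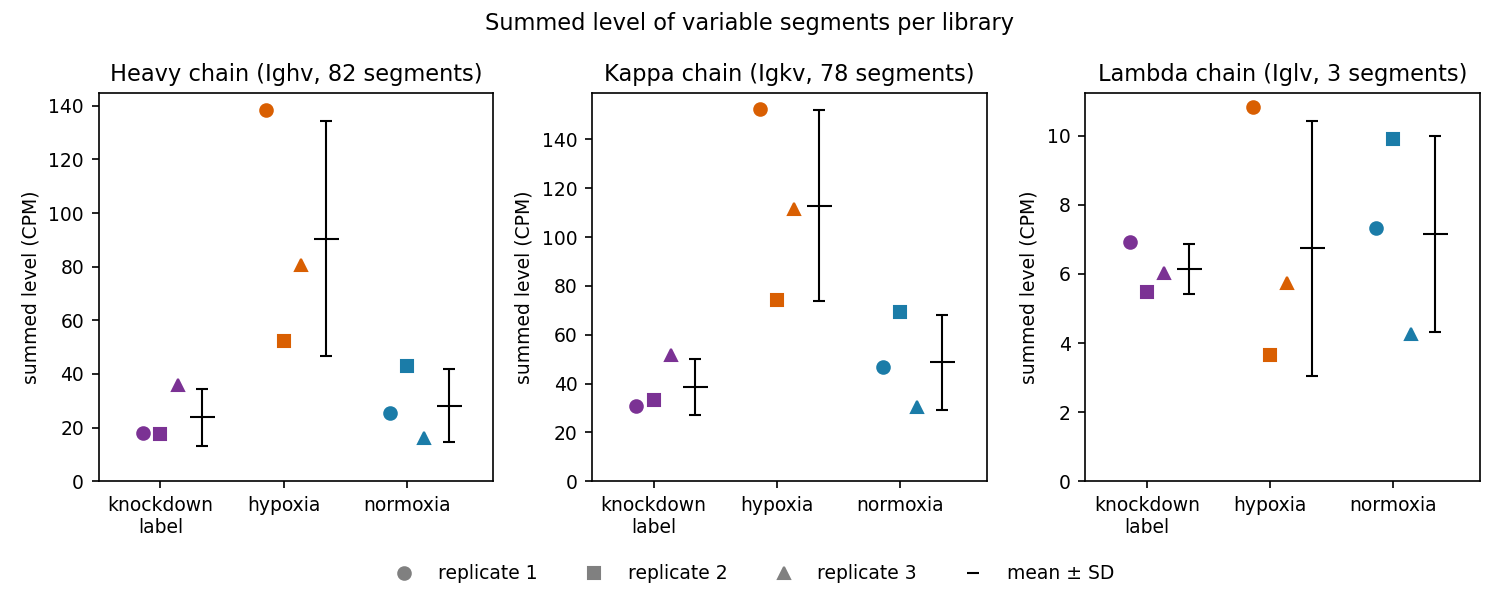
Summed level of variable segments per locus (CPM, vertical axis), with the knockdown label left, hypoxia in the middle and normoxia right. Points are libraries and bars the mean ± SD of 3. For Ighv the hypoxia libraries lie between 52.4 and 138 CPM, above the other 6, and for Igkv between 74.4 and 153 CPM, whereas the Iglv libraries overlap.

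The number of Ighv segments seen was highest in hypoxia libraries, which also had the most Ighv counts, and overlapped with normoxia. Of 82 Ighv segments, 59, 62 and 63 had at least 1 count in the knockdown label, 79, 71 and 75 in hypoxia and 57, 73 and 65 in normoxia. With at least 3 counts the numbers were 41, 35 and 47 in the knockdown label, 76, 55 and 66 in hypoxia and 41, 58 and 37 in normoxia. When each library was reduced to 267 Ighv counts, the lowest sum of any library, the expected numbers were 57.2, 62.0 and 53.6 in the knockdown label, 56.9, 56.4 and 59.0 in hypoxia and 52.7, 61.4 and 64.9 in normoxia, and all 3 groups overlapped.

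Of 78 Igkv segments, 69, 66 and 67 were seen in the knockdown label, 74, 69 and 75 in hypoxia and 66, 74 and 66 in normoxia. At 508 counts per library the expected numbers were 68.1, 65.9 and 62.6 in the knockdown label, 64.9, 61.0 and 64.5 in hypoxia and 61.7, 66.9 and 66.0 in normoxia, again with overlap. All 3 Iglv segments were seen in every library.

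The segment with the most counts was seldom the same in different libraries. In the knockdown label the top Ighv segments were Ighv1-26 with 9.66% of Ighv counts (95% Wilson interval 6.89 to 13.4%), Ighv9-3 with 7.12% (4.60 to 10.8%) and Ighv7-1 with 12.4% (9.99 to 15.2%). In hypoxia they were Ighv9-3 with 32.8% (31.0 to 34.7%), Ighv1-84 with 12.9% (10.9 to 15.2%) and Ighv3-6 with 6.97% (5.75 to 8.42%). In normoxia they were Ighv1-7 with 12.6% (9.71 to 16.2%), Ighv6-6 with 9.0% (7.11 to 11.3%) and Ighv1-26 with 6.69% (4.27 to 10.3%), tied with Ighv9-3 at 18 counts each. These intervals cover counting error only, since reads are not independent molecules. The share of 32.8% in hypoxia library 1 stood apart from those in the other 8 libraries, none of which exceeded 12.9%.

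The top kappa segment was Igkv1-117 in all 3 libraries of the knockdown label, with 7.26%, 7.03% and 11.7% of Igkv counts, tied with Igkv1-110 at 36 counts each in library 2. In hypoxia it was Igkv4-59 with 18.3% (16.9 to 19.8%), Igkv6-23 with 13.0% (11.3 to 14.9%) and Igkv3-4 with 8.59% (7.43 to 9.92%). In normoxia it was Igkv8-30 with 10.4%, Igkv6-25 with 6.81% and Igkv10-96 with 7.28%. Among the lambda segments Iglv1 led in 8 of the 9 libraries, with 40.8 to 71.3% of Iglv counts, and Iglv2 led in normoxia library 1.

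The 10 most counted Ighv segments together held 41.4%, 43.8% and 52.5% of Ighv counts in the knockdown label, 60.7%, 47.2% and 43.5% in hypoxia and 51.1%, 46.8% and 42.8% in normoxia. The groups overlapped, and hypoxia library 1 was the highest of the 9. For Igkv the 10 leading segments held 44.1%, 43.9% and 48.2% in the knockdown label, 58.5%, 54.6% and 52.1% in hypoxia and 53.8%, 45.9% and 40.4% in normoxia. The effective number of Ighv segments, the inverse of the summed squared shares, was 32.8, 34 and 24.4 in the knockdown label, 8.33, 26.3 and 35.1 in hypoxia and 23.2, 30.5 and 34.9 in normoxia. For Igkv it was 33.5, 33.1 and 26.9 in the knockdown label, 16.1, 23.2 and 27.2 in hypoxia and 24.7, 32.5 and 37.1 in normoxia. Apart from hypoxia library 1, the Ighv libraries of all groups lay between 23.2 and 35.1.

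The lists of 10 leading segments were compared within each group. For Ighv, 2 segments (Ighv1-26 and Ighv7-1) were on the list of all 3 libraries of the knockdown label, 5 on those of hypoxia (Ighv1-9, Ighv1-18, Ighv1-55, Ighv1-74 and Ighv3-6) and 2 on those of normoxia (Ighv1-26 and Ighv9-3). For Igkv the numbers were 4 in the knockdown label (Igkv1-110, Igkv1-117, Igkv10-96 and Igkv15-103), 7 in hypoxia (Igkv3-4, Igkv6-23, Igkv10-96, Igkv14-111, Igkv17-121, Igkv17-127 and Igkv19-93) and 3 in normoxia (Igkv1-110, Igkv1-135 and Igkv6-15). Lists from libraries with fewer counts vary more by counting alone. No test was made of this difference.

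**Figure D2:**
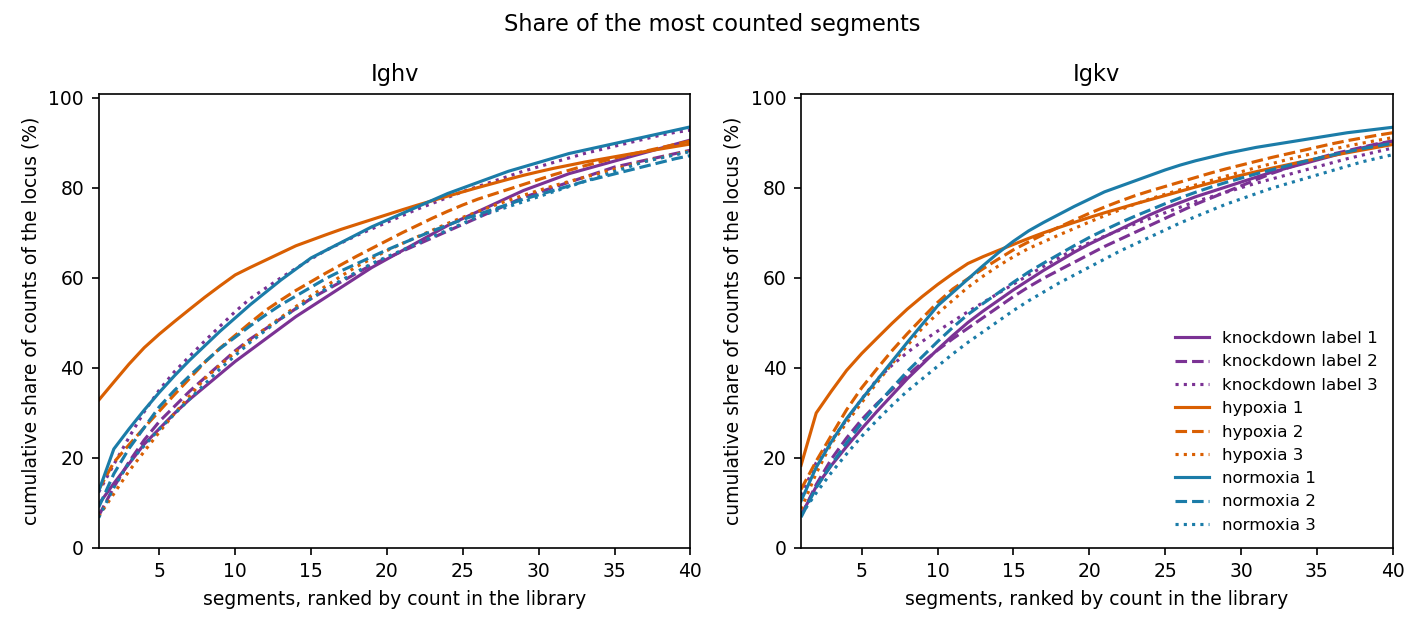
Cumulative share of a locus's counts (percent, vertical axis) against segment rank within each library (horizontal axis), for Ighv and Igkv, with each line a library coloured by group. The Ighv line of hypoxia library 1 starts at 32.8%, above the other 8, whose first rank holds at most 12.9%.

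Some segments were high in a single library. By a rule chosen after the values were seen, a member with at least 50 counts was counted when at least 50% of its summed CPM lay in 1 library, and 5 of 41 Ighv, 4 of 50 Igkv and 0 of 3 Iglv segments met it. Ighv9-3 had 0.335, 1.24 and 1.17 CPM in the knockdown label, 45.4, 1.14 and 2.18 CPM in hypoxia and 1.01, 1.39 and 1.08 CPM in normoxia. Library 1 of hypoxia held 821 of its counts and 82.6% of its summed CPM, and outside that library the groups overlapped. Igkv4-59 had 0.446, 0.522 and 0.761 CPM in the knockdown label, 28.0, 0.683 and 3.33 CPM in hypoxia and 1.20, 2.29 and 0.779 CPM in normoxia, so that the same library held 73.6%. In spite of fitted log2 differences of 3.8 (SE 1.17, adjusted p = 0.109) for Ighv9-3 and 2.90 (SE 1.01, adjusted p = 0.155) for Igkv4-59, neither passed the filtered test in hypoxia against normoxia. With no filter on low counts both passed it (adjusted p = 0.000243 for Ighv9-3 and 0.00172 for Igkv4-59). That fit thus called more segments high in a single library than the filtered fit did. Ighv1-84 had 1, 0 and 0 counts in the knockdown label, 7, 119 and 1 in hypoxia and 0, 21 and 1 in normoxia, so library 2 of hypoxia held 78.7% of its CPM. It had 150 counts in all but was not tested, because too few libraries had enough of them. In the knockdown label, Ighv7-3 had 54.0% of its CPM in library 3. In normoxia, Ighv1-7 had 57.4% in library 1 and Ighv6-6 50.6% in library 2. The remaining 3 were Igkv3-4 with 52.2%, Igkv6-14 with 50.8% and Igkv11-125 with 50.5%, all in hypoxia library 1. Of these, Igkv3-4 and Igkv6-14 were called in the filtered fit in both comparisons with hypoxia.

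Single segments were tested in a fit across 17578 genes, with p-values adjusted over all of them (edgeR quasi-likelihood test, Benjamini-Hochberg, threshold 0.05). Of the 163 members, 76 had enough counts in enough libraries for the test: 33 Ighv, 40 Igkv and 3 Iglv. A segment that enters the test only through the group where it is high had to differ, so the counts that follow describe these 76 alone. The fit with no filter on low counts, in which all 163 entered, stands beside them. It is not free of this limit, because a segment can also reach a summed count of 10 mainly through hypoxia. Igkv11-125 had 0, 1 and 1 counts in the knockdown label, 27, 11 and 5 in hypoxia and 1, 6 and 0 in normoxia.

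In hypoxia against normoxia, 17 of the 76 tested segments were called higher, 10 of them Ighv and 7 Igkv, and none was called lower. Over all genes tested, 2.77% were called higher and 1.45% lower. At an unadjusted p under 0.05, 32 segments were higher and 0 lower. The median log2 difference was 1.58 over the tested Ighv, 0.99 over Igkv and −0.11 over Iglv segments, against −0.01 over all genes. With no filter on low counts, 26 of the 163 were called higher and 0 lower, against 2.76% and 1.43% of all 30865 genes in that fit, and 126 had a positive log2 difference. Of these 26, 4 were among the segments high in a single library (Ighv9-3, Igkv3-4, Igkv4-59 and Igkv6-14). Igkv3-4 and Igkv6-14 were also among the 17. The count of 17 depended on single libraries, being 5 without normoxia library 3, 8 without hypoxia library 1, 9 without hypoxia library 3 and 10 without normoxia library 1. Under leave-one-out, 4 segments, Ighv1-9, Ighv1-74, Ighv1-75 and Ighv14-4, passed in all 9 fits. These 4 had at most 7 counts in any library outside hypoxia, so they entered the test only through hypoxia. The filter thus favoured their calls, and passing in every fit is not separate support for them.

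Ighv1-74, a member of the large Ighv1 family, had 0.0558, 0.0652 and 0.117 CPM in the knockdown label, 3.76, 1.99 and 4.08 CPM in hypoxia and 0.126, 0.362 and 0.180 CPM in normoxia. In counts these were 1, 1 and 2 in the knockdown label, 68, 35 and 71 in hypoxia and 2, 6 and 3 in normoxia, so every library outside hypoxia was near the detection floor. The log2 difference between hypoxia and normoxia was 3.83 (SE 0.48, adjusted p = 0.0033). Ighv1-9 had 0.279, 0.130 and 0.293 CPM in the knockdown label, 3.48, 1.93 and 3.33 CPM in hypoxia and 0.379, 0.241 and 0.180 CPM in normoxia, a log2 difference of 3.42 between hypoxia and normoxia (SE 0.45, adjusted p = 0.00362). Ighv1-75 reached 2.32, 1.48 and 3.50 CPM in hypoxia, against 0.189, 0.302 and 0.180 CPM in normoxia, with a log2 difference of 3.40 (SE 0.50, adjusted p = 0.00574). Ighv14-4 had 1.66, 1.88 and 1.95 CPM in hypoxia, against 0.253, 0.302 and 0.0599 CPM in normoxia (log2 difference 3.12, adjusted p = 0.00818). In these 4 segments the lowest hypoxia library lay far above the highest normoxia library, which choosing them by their calls favours.

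Igkv3-4 had 0.335, 0.196 and 0.176 CPM in the knockdown label, 17.7, 4.21 and 9.59 CPM in hypoxia and 0.126, 1.27 and 0.359 CPM in normoxia. Its log2 difference between hypoxia and normoxia was 4.14 (SE 0.67, adjusted p = 0.00822), a call lost with limma-voom and without normoxia library 3 (adjusted p = 0.0524). Igkv6-23, the top kappa segment of hypoxia library 2, had 0.948, 1.04 and 0.644 CPM in the knockdown label, 4.31, 9.67 and 4.36 CPM in hypoxia and 1.96, 1.69 and 0.839 CPM in normoxia, a log2 difference of 2.03 between hypoxia and normoxia (SE 0.41, adjusted p = 0.0225). This call was lost without normoxia library 2 or 3, with an adjusted p of up to 0.0914, and in the fit on only the 6 libraries of this comparison. Ighv5-6 and Igkv3-5 were nearly absent from normoxia. Ighv5-6 had 53 counts in the hypoxia libraries and 2 in the normoxia libraries, a ratio of CPM of 24.5 with an exact counting interval of 6.46 to 208. Igkv3-5 had 52 counts in hypoxia and 3 in normoxia, a ratio of 16.0 with an interval of 5.19 to 80.3. Both calls were lost in some fits that left out a hypoxia or normoxia library, with an adjusted p of up to 0.149 for Ighv5-6 and 0.0691 for Igkv3-5. The remaining called segments had log2 differences between 1.95 in Igkv14-111 (adjusted p = 0.012) and 4.13 in Ighv9-2 (adjusted p = 0.0153). Without hypoxia library 1 or 3 both of these calls were lost, as they were for Igkv14-111 without normoxia library 3 and for Ighv9-2 without normoxia library 2, with an adjusted p of at most 0.0648.

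**Figure D3:**
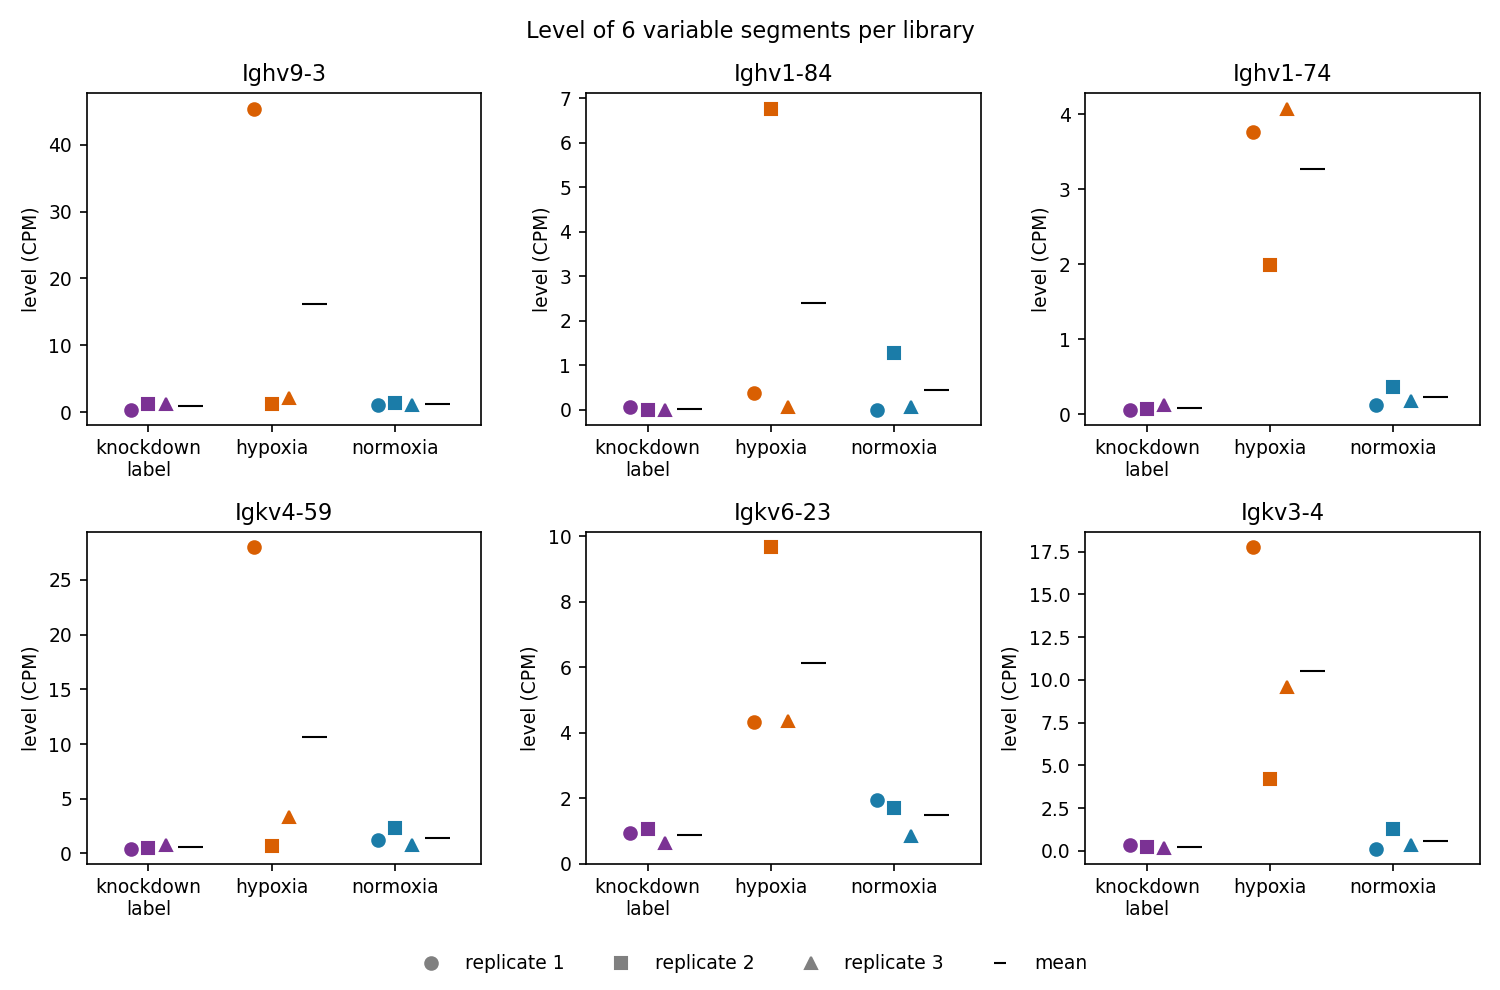
Level of 6 variable segments (CPM, vertical axis) in each library, with the knockdown label left, hypoxia in the middle and normoxia right. Points are libraries and ticks the group mean. Ighv9-3, Igkv4-59 and Ighv1-84 are high in a single hypoxia library (45.4, 28.0 and 6.77 CPM), whereas Ighv1-74, Igkv3-4 and Igkv6-23 are above the other groups in all 3 hypoxia libraries. The last 3 are segments called in both comparisons with hypoxia.

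In the knockdown label against hypoxia, 15 of the 76 tested segments were called lower, 8 Ighv and 7 Igkv, and none was called higher. Over all genes tested, 0.449% were called lower and 1.26% higher. At an unadjusted p under 0.05, 37 segments were lower and 0 higher. The median log2 difference was −1.93 over the tested Ighv and −1.48 over the tested Igkv segments, against −0.00 over all genes. With no filter, 28 of the 163 were called lower and 0 higher, against 0.868% and 1.22% of all genes in that fit, and 139 had a negative log2 difference. These 28 included 6 segments high in a single library (Ighv1-84, Ighv9-3, Igkv3-4, Igkv4-59, Igkv6-14 and Igkv11-125). Igkv3-4 and Igkv6-14 were also among the 15. The count of 15 was 9 without library 3 of the knockdown label and 9 without hypoxia library 1.

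Ighv1-74 had a log2 difference of −5.24 between the knockdown label and hypoxia (SE 0.55, adjusted p = 0.00036). Igkv3-4 had −5.43 (SE 0.75, adjusted p = 0.0027), a call lost with limma-voom. Igkv6-14 had 0.0558, 0 and 0.0585 CPM in the knockdown label and 2.32, 1.19 and 0.574 CPM in hypoxia. Its 2 counts against 73 gave a ratio of CPM of 0.0289, with an exact counting interval of 0.00343 to 0.108. Igkv17-121 had 0.335, 0.587 and 0.234 CPM in the knockdown label, 5.75, 3.13 and 7.41 CPM in hypoxia and 0.568, 1.33 and 0.959 CPM in normoxia, with a log2 difference of −3.81 between the knockdown label and hypoxia (adjusted p = 0.00132). Igkv17-127 had 0.725, 0.652 and 0.761 CPM in the knockdown label, 7.41, 4.27 and 5.11 CPM in hypoxia and 1.07, 2.29 and 0.599 CPM in normoxia (log2 difference −2.96, adjusted p = 0.00527). In each of these segments every library of the knockdown label lay below every hypoxia library. They were named because they were called lower, so this separation is not separate support. Ighv1-74 and Igkv6-14 had at most 6 counts in any library outside hypoxia, so they entered the test only through hypoxia. The filter thus favoured their calls. Ighv1-9, Ighv14-4 and Igkv6-23 had log2 differences of −3.58 (adjusted p = 0.00134), −3.66 (adjusted p = 0.00371) and −2.79 (adjusted p = 0.00631).

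In the knockdown label against normoxia, none of the 76 tested segments was called by the edgeR quasi-likelihood test, against 4.79% of all genes called higher and 3.44% called lower. At an unadjusted p under 0.05, 2 segments were higher and 5 lower. DESeq2 called 1 segment lower and none higher, and limma-voom called none. With no filter on low counts 1 of the 163 was called higher and 3 lower, against 3.44% and 2.55% of all genes in that fit. The median log2 difference was −0.36 over the tested segments. A lack of calls does not show that the levels were equal.

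Several abundant segments were called in neither comparison with hypoxia when low counts were filtered. Ighv1-26, with the highest share of the Ighv locus in library 1 of the knockdown label and in normoxia library 3, had a log2 difference of 0.86 in hypoxia against normoxia (adjusted p = 0.504) and of −1.15 in the knockdown label against hypoxia (adjusted p = 0.538). Igkv1-117 had 0.78 (adjusted p = 0.448) and 0.18 (adjusted p = 0.943) in the same comparisons, and Igkv10-96 had 1.75 (adjusted p = 0.0658) and −1.72 (adjusted p = 0.129). With no filter, Igkv10-96 passed in both comparisons (adjusted p = 0.00154 and 0.00296). Iglv1 had 4.80, 2.81 and 2.46 CPM in the knockdown label, 6.25, 2.22 and 3.79 CPM in hypoxia and 2.65, 7.06 and 2.28 CPM in normoxia, which overlapped throughout.

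**Figure D4:**
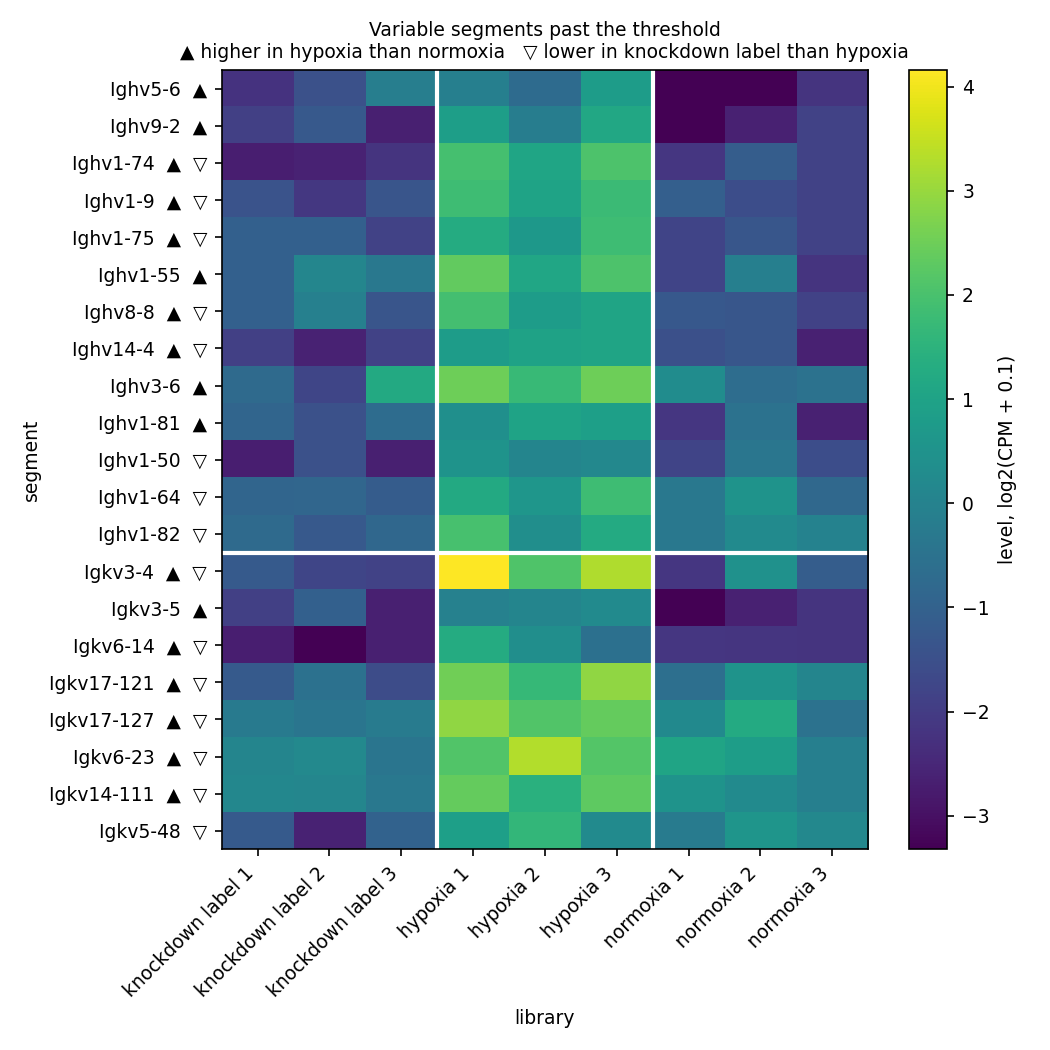
Level of the 21 segments that passed the threshold in either comparison with hypoxia, as colour on the scale log2(CPM + 0.1), with a row per segment and a column per library (knockdown label, hypoxia, normoxia). Upward triangles mark segments called higher in hypoxia than in normoxia (17) and downward triangles those called lower in the knockdown label than in hypoxia (15). The 3 hypoxia columns are the brightest in most rows, which follows from choosing the rows by these calls.

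Families showed how widely the difference was spread. The Ighv1 family, with 42 members the largest, summed to 10.5 ± 2.04 CPM in the knockdown label, 47.3 ± 12.5 CPM in hypoxia and 14.6 ± 6.26 CPM in normoxia (SD, n = 3 each), and held a mean of 47.7%, 56.1% and 52.6% of the Ighv counts in these groups. Of its 18 tested members, 5 were called higher in hypoxia than in normoxia and 6 lower in the knockdown label than in hypoxia. Over all 33 tested Ighv segments these numbers were 10 and 8. The 2 members of Igkv17 together held 3.45%, 3.71% and 1.93% of the Igkv counts in the knockdown label, 8.63%, 9.95% and 11.2% in hypoxia and 3.52%, 5.24% and 5.12% in normoxia, with hypoxia above the other groups in every library. Both members were called in both comparisons with hypoxia, so this share repeats those calls. In contrast, the 7 members of Igkv1 summed to 6.89 ± 2.49 CPM in the knockdown label, 7.66 ± 1.51 CPM in hypoxia and 6.91 ± 3.26 CPM in normoxia. Their mean share of the Igkv counts was 17.7%, 7.06% and 14.1% in these groups. By position along the Ighv locus, 4 called segments of hypoxia against normoxia were among the 41 members nearer to the constant region (14 tested) and 6 among the 41 farther away (19 tested). For the knockdown label against hypoxia these numbers were 1 and 7.

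The constant segments, which are transcribed with the rearranged variable segments, were read from the same libraries. Igha, the IgA heavy chain, had 18.3, 10.2 and 15.1 CPM in the knockdown label, 239, 92.8 and 155 CPM in hypoxia and 52.6, 31.9 and 13.2 CPM in normoxia. It was higher in hypoxia than in normoxia by 2.32 on the log2 scale (adjusted p = 0.0181), and the knockdown label differed from hypoxia by −3.48 (adjusted p = 0.00249). Ighg2c, an IgG heavy chain, was listed at 0.390, 0.196 and 0 CPM in the knockdown label, 28.6, 8.36 and 24.9 CPM in hypoxia and 0.884, 0.121 and 0.240 CPM in normoxia, with log2 differences of 5.63 for hypoxia against normoxia (adjusted p = 0.003) and −6.65 for the knockdown label against hypoxia (adjusted p = 0.000654). Ighm, the IgM heavy chain that naive B cells carry, had 95.4, 115 and 130 CPM in the knockdown label, 156, 80.3 and 114 CPM in hypoxia and 83.6, 157 and 80.1 CPM in normoxia, with overlap of all groups and adjusted p of 0.874 and 0.982 in the same comparisons. Igkc, the kappa constant segment, had a log2 difference of 1.15 in hypoxia against normoxia (adjusted p = 0.0718) and of −1.61 in the knockdown label against hypoxia (adjusted p = 0.0296). Of 10 constant segments tested, 2 were called higher in hypoxia than in normoxia, 3 lower in the knockdown label than in hypoxia and none in the knockdown label against normoxia. With no filter on low counts, Igkc was also called in hypoxia against normoxia (adjusted p = 9.95e-05) and Ighg2b in the knockdown label against hypoxia (adjusted p = 0.000507). That fit called Igha (adjusted p = 0.00397) and Ighg2b (adjusted p = 0.00703) lower in the knockdown label than in normoxia. Ighg2b had 172, 30 and 8 counts in normoxia.

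As a share of heavy chain constant counts, Igha made up 13.1%, 6.44% and 8.92% in the knockdown label, 49.0%, 42.5% and 46.1% in hypoxia and 30.6%, 13.1% and 10.9% in normoxia. IgM and IgD together made up 85.1%, 91.8% and 89.7% in the knockdown label, 42.4%, 50.3% and 43.6% in hypoxia and 61.8%, 85.4% and 88.1% in normoxia. The hypoxia libraries were the highest 3 for Igha and the lowest 3 for IgM and IgD. For every 100 counts of heavy chain constant segments there were 12.8, 11 and 21.3 counts of Ighv in the knockdown label, 28.4, 24.0 and 24.0 in hypoxia and 14.9, 17.5 and 13.3 in normoxia. For every 100 Igkc counts there were 78.3, 72.4 and 97.0 counts of Igkv in the knockdown label, 78.8, 90.1 and 75.5 in hypoxia and 68.3, 81.6 and 80.8 in normoxia. The heavy chain ratio was thus above the other groups in all 3 hypoxia libraries, and the kappa ratio overlapped.

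Markers of cell types were counted beside the segments. Of 18 B cell identity genes tested, none was called in either comparison with hypoxia, while Cd72 was called higher and Fcer2a lower in the knockdown label than in normoxia. With no filter, 3 of the list were called lower in the knockdown label than in hypoxia. These were Fcer2a (log2 difference −1.39, adjusted p = 0.000487), Btla (−0.58, adjusted p = 0.0446) and Pou2af1 (−0.74, adjusted p = 0.04997). In that fit Btla was also called higher in hypoxia than in normoxia (0.59, adjusted p = 0.0226). The summed CPM of the 18 genes was 236 to 288 in the knockdown label, 262 to 420 in hypoxia and 206 to 389 in normoxia. Cd79a, part of the B cell receptor, had 22.5, 29.9 and 19.4 CPM in the knockdown label, 38.5, 18.0 and 27.3 CPM in hypoxia and 16.4, 33.9 and 24.9 CPM in normoxia, with overlap of all groups. Of 13 plasma cell genes tested, Irf4 (log2 difference 0.96, adjusted p = 0.0225) and Slamf7 (1.67, adjusted p = 0.00864) were called higher in hypoxia than in normoxia, and none was called in the knockdown label against hypoxia. The median log2 difference over the tested genes of this list was 0.45 in hypoxia against normoxia. Fkbp11 (1.07, adjusted p = 0.0356) and Slamf7 (1.25, adjusted p = 0.0183) were called higher in the knockdown label than in normoxia. Other lymphoid cells also express Irf4 and Slamf7. Jchain, which joins the units of IgA and IgM, had 5.75, 4.63 and 11.3 CPM in the knockdown label, 61.9, 23.7 and 49.1 CPM in hypoxia and 21.8, 13.7 and 3.36 CPM in normoxia. Its hypoxia libraries lay above all others, with an adjusted p of 0.107 in hypoxia against normoxia and 0.0502 in the knockdown label against hypoxia. With no filter on low counts it passed in both (adjusted p = 0.00029 and 1.1e-06). Of the genes of V(D)J recombination and mutation, 9 were tested and none was called in any comparison. Rag1, part of the recombinase, had 20, 80 and 6 counts in the knockdown label, 9, 8 and 152 in hypoxia and 1, 13 and 1 in normoxia. With no filter on low counts, Rag1 was called higher than in normoxia both in hypoxia (adjusted p = 0.0142) and in the knockdown label (adjusted p = 0.0486). Most of its counts in each of these groups lay in a single library.

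Markers of T cells moved together with the variable segments. Of 17 tested, 16 were called higher in hypoxia than in normoxia and 13 lower in the knockdown label than in hypoxia, and their summed CPM was 100.3 to 127 in the knockdown label, 210 to 660 in hypoxia and 72.1 to 90.9 in normoxia. No T cell marker of the list was at 0 in all libraries. Natural killer cell markers were called higher in hypoxia than in normoxia for 8 of 8, but none was called in the knockdown label against hypoxia, and their summed CPM was 289 to 464 in the knockdown label, 176 to 537 in hypoxia and 44.8 to 52.2 in normoxia. Erythroid markers were called lower in hypoxia than in normoxia for 6 of 6 and lower in the knockdown label than in hypoxia for 4 of 6. Of 9 macrophage markers, C1qb was called higher in hypoxia than in normoxia, C1qa and C1qb were called higher in the knockdown label than in hypoxia, and 7 were called higher in the knockdown label than in normoxia. Of 6 neutrophil markers, none was called in hypoxia against normoxia, and S100a8 and S100a9 were called higher in the knockdown label than in hypoxia. The part of these cell types in the immunoglobulin result was not tested.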

How the data were processed

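RNA of 9 mouse lung libraries was sequenced, 3 per group. Per the labels' protocols, the RNeasy Mini Plus kit was used for RNA and the NEBNext Ultra RNA kit for libraries. The tools in the submitters' processing notes are HISAT2, TopHat, StringTie, bcl2fastq, DESeq and limma, and the build is mm10. The counting program and its use of strand are not stated in these sources. The authors deposited whole-number counts per gene, not normalised. All 163 members were matched by identifier to GENCODE M21 (GRCm38), and none had the same start and end there as in the deposited table, whose annotation is not named, so printed positions come from GENCODE.

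Counts were tested with edgeR 4.0.16 under R 4.3.3 (filterByExpr, TMM scaling, quasi-likelihood test, a coefficient per group over all 9 libraries, Benjamini-Hochberg adjustment over 17578 genes, threshold 0.05), with 6 residual degrees of freedom. CPM was the count divided by the TMM-scaled library total, times 1000000. Summed levels are sums of CPM over the members of a locus. Numbers of segments at equal counts came from the exact rarefaction formula. On simulated counts of 17275 genes for hypoxia against normoxia, the test recovered 81% of genes changed 2-fold and 98% of those changed 4-fold. The changed genes were not drawn from those with the lowest counts, so these rates need not hold for segments with few counts. Replicates differed by more than counting noise in every pair.

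The members and the gene lists were chosen with earlier results of these data known. Segments named with values were the 3 with the highest mean share per locus, the top segment of each library, up to 8 called segments with the largest log2 differences per comparison, and those at the edge of the rule. Exceptions, chosen after their values were seen, are the remaining segments of a list that is named whole, the families, and the segments high in a single library. Alternatives were other scaling, filters, tests, numbers of libraries, member rules, a replicate block and leaving out each library. The promoters of the segments were not analysed here.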

Additional observations from a re-analysis of the deposited data

How the results depend on the processing

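Summed levels moved by less than the spread between replicates in each of 90 recomputed values (library totals in place of TMM, no pseudogenes, no top segment per library, all 231 rows, each library left out). That spread was wide, a combined SD of 0.594 to 0.985 on the log2 scale, so staying within it is a weak check. The Iglv ratios, near 0, changed sign in some of the 90 values. So did the Ighv and Igkv ratios of the knockdown label against normoxia. As each library was left out, they ran from −0.68 to 0.19 in Ighv and from −0.60 to 0.002 in Igkv. The counts of called segments depended on more. In hypoxia against normoxia the count of 17 became 26 with no filter on low counts, and 5 to 22 as each library was left out. In the knockdown label against hypoxia the count of 15 became 28 with no filter, 24 with the DESeq2 Wald test, and 9 to 19 as each library was left out. In the knockdown label against normoxia the count of 0 became 1 higher and 3 lower with no filter, and 1 lower with DESeq2. The cause was not tested. No called segment changed direction. Replicate numbers gave no sign of pairing the libraries. Correlations of deviations ran from −0.42 to 0.27 between libraries of the same number and from −0.31 to 0.44 between those of different numbers. With 3 libraries per group this cannot exclude a pairing. With the number as a replicate block, 12 segments were called in hypoxia against normoxia and 10 in the knockdown label against hypoxia. Segments with few counts limit the rest. A count of 3 is the floor, and most members lacked enough counts in enough libraries for the test. Near-identical segments cannot be told apart with certainty.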
